A study of Mus musculus with 6 samples.

Results

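The miR-181 family was followed through small RNA sequencing of hippocampal neural stem cells (NSCs), which divide and give rise to neurons and glia, from newborn mice. Its members were taken by name, as every row of the deposited table that begins with mmu-miR-181a-, mmu-miR-181b-, mmu-miR-181c- or mmu-miR-181d-. That gave 10 of the 1522 mature miRNAs in the table, 4 of them 5p arms (mmu-miR-181a-5p, mmu-miR-181b-5p, mmu-miR-181c-5p and mmu-miR-181d-5p) and 6 of them 3p arms. In the exposed group, called GDE here, pregnant dams had been given dexamethasone, a synthetic glucocorticoid, at 1 mg/kg by daily intraperitoneal injection between E14.5 and E18.5 of embryonic life, while the dams of the Control group had received saline on those days. NSCs were taken with a tissue dissociation kit from male C57BL/6J offspring at postnatal day 3, and each group had 3 libraries, which the design text assigns to independent litters. The libraries titled IUGR are the GDE group and those titled Normal the Control group, per the design text. The title of the study is about miR-335-3p, so the miR-181 family was not its stated subject.

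A microRNA is cut from a hairpin precursor as a duplex, whose 5p and 3p strands come from the 2 sides of the stem. One strand is usually kept in the Argonaute complex as the guide, and the other, the passenger, is mostly degraded. The guide finds its target mRNAs mainly through its seed, bases 2 to 8 from its 5′ end, so miRNAs with the same seed share many predicted targets. The miR-181 family is encoded by 3 pairs of neighbouring precursors in the mouse. It is best known from the immune system, where miR-181a tunes the sensitivity of T cell receptor signalling during thymocyte development, and it is also abundant in the brain.

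The mature sequences are shown first, because the seed groups the members and the few bases outside it are all that tells the rows of the table apart. All 10 rows were matched by name to RefSeq (GRCm38.p6). Each is written 5′ to 3′ with its seed in capitals, the 5p arms before the 3p arms.
mmu-miR-181a-5p: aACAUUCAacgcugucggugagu
mmu-miR-181b-5p: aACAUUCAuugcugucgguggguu
mmu-miR-181c-5p: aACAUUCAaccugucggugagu
mmu-miR-181d-5p: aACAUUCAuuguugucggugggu
mmu-miR-181a-1-3p: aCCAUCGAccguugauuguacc
mmu-miR-181a-2-3p: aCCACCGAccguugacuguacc
mmu-miR-181c-3p: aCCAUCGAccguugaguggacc
mmu-miR-181b-1-3p: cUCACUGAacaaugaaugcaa
mmu-miR-181b-2-3p: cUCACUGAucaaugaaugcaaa
mmu-miR-181d-3p: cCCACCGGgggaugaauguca

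The 4 5p members carried 1 seed, ACAUUCA, and no other miRNA of the table that could be matched to a RefSeq sequence carried it (960 of the 1147 rows with a miRBase name were matched). Outside the seed, miR-181a-5p and miR-181c-5p were close to identical, as were miR-181b-5p and miR-181d-5p. The other pairs had 3 or 4 substitutions, with an internal gap of 1 base as well where miR-181c-5p was in the pair. Counting positions from 1 at the 5′ end of the first-named miRNA, miR-181b-5p differed from miR-181a-5p by A9U, C10U and A21G and by 1 more base at its end. miR-181d-5p differed from miR-181b-5p by C12U and by that end base. miR-181c-5p had no substitution against miR-181a-5p and lacked 1 internal base, G11. The 3p arms fell into 4 seeds. miR-181a-1-3p and miR-181c-3p shared CCAUCGA and differed by U16G and U19G, while miR-181a-2-3p differed from miR-181a-1-3p by U5C, inside the seed, and by U16C. The 3p arms of the miR-181b copies shared UCACUGA and differed by A9U and by 1 more base at the end of miR-181b-2-3p. miR-181d-3p had the seed CCACCGG. How reads that fit several such sequences were assigned is not given in the sources used here, so the split between members, above all between miR-181b-5p and miR-181d-5p, is uncertain. If reads that fit several members were counted in each of them, a sum over the 5p members would be too high, which was not tested. No family row carried the same values as another row.

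The precursors lie in pairs. Mir181a-1 is at chr1:137966455-137966541 and Mir181b-1 at chr1:137966639-137966718, both on the plus strand with 97 bases between them. Per GENCODE M21 (GRCm38) this pair lies in an intron of the non-coding transcript Gm4258 on its own strand. There Mir181b-1 also lies in an exon of the lincRNA A430106G13Rik, and Mir181a-1 partly does, and the lincRNA Gm26936 has an intron over both on the opposite strand. Mir181a-2 at chr2:38852735-38852810 and Mir181b-2 at chr2:38853830-38853918, on the plus strand and 1019 bases apart, lie opposite an intron of the nuclear receptor gene Nr6a1, and Mir181b-2 also lies opposite an exon of Gm44144. Mir181d at chr8:84178716-84178787 and Mir181c at chr8:84178873-84178961, on the minus strand and 85 bases apart, lie in an intron of Nanos3 on its own strand. The a and b letters therefore each have a copy on chromosome 1 and a copy on chromosome 2. Their 5p sequences are the same in both copies, so that miR-181a-5p and miR-181b-5p are each a single row that sums over both loci. Only the 3p arms tell the copies apart, as the precursors of miR-181a show, written from RefSeq (GRCm38.p6) with the 2 mature arms in capitals.
Mir181a-1: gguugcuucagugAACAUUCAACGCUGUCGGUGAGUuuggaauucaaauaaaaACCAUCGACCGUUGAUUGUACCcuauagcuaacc
Mir181a-2: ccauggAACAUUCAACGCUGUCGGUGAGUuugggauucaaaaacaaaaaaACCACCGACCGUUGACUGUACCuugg

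The values were read as RPM, tags scaled to the total of the library. Each library rested on 11751322 to 12384958 tags, of which 2927136 to 3343808 were in the table, so that the table summed to 253175 ± 10267 RPM in GDE and 263885 ± 12551 RPM in Control (mean ± SD, n = 3 each, as throughout). A tag is worth about 0.08 RPM, and a count of 0 would allow up to 3 tags, 0.242 to 0.255 RPM. The tags are PCR products without stated molecular identifiers, so such limits cover counting error only. Marker miRNAs were read beside the label NSC. No other tissue or cell type was sequenced here for comparison, so their levels do not verify that label. miR-9-5p, which is abundant in neural progenitors, averaged 8389 ± 209 RPM in GDE libraries and 8427 ± 357 RPM in Control libraries, and the neuronal miR-124-3p averaged 238.6 ± 28.4 RPM in GDE libraries and 229.0 ± 50.8 RPM in Control libraries. Choroid plexus, endothelial and blood markers were detected beside them and are given with the results below.

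The family was among the most abundant of these cells, and nearly all of it was 5p strand of the a and b letters. Summed over the 4 5p members, the seed ACAUUCA had 14961 RPM on average over the 6 libraries. By this mean it was the third highest of 825 seeds, after the let-7 seed (59254 RPM over 10 miRNAs) and the miR-99/100 seed (17980.1 RPM over 3 miRNAs). The miR-15/16 seed came next (13609.8 RPM over 6 miRNAs), but that order was not fixed. The miR-15/16 seed was slightly higher in GDE replicate 3 (14040 against 14019 RPM) and in Control replicate 1 (16444 against 16370 RPM). The 5p sum was 15009, 14760.0 and 14019 RPM in the 3 GDE libraries and 16370, 15303 and 14302 RPM in the 3 Control libraries. The groups overlapped, with means of 14596 ± 515 RPM for GDE and 15325 ± 1034 RPM for Control, a log2 difference of -0.07. This difference was -0.02 without Control replicate 1, -0.04 without GDE replicate 3 and -0.12 without Control replicate 3, and -0.01 with each library rescaled to the sum of the table. As a share of all RPM in the table the 5p members made up 5.77% ± 0.078 in GDE and 5.81% ± 0.277 in Control.

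The 10 rows spanned 4 levels, as the plot of all rows by library shows. miR-181a-5p stood first at a mean of 7388 RPM over the 6 libraries (rank 13 of the 1147 named miRNAs) and was above miR-181b-5p (6525 RPM, rank 17) in 6 of 6 libraries, by 1.13-fold on average, although their ranges overlapped. A step of 11.6-fold, with no overlap, led down to miR-181c-5p (563.7 RPM), miR-181a-1-3p (498.3 RPM) and miR-181d-5p (483.7 RPM), which did not keep a fixed order. miR-181c-5p was above miR-181a-1-3p in 4 of 6 libraries and miR-181a-1-3p above miR-181d-5p in 3 of 6. The next step, 8.24-fold with no overlap, led to miR-181a-2-3p (58.7 RPM) and miR-181c-3p (58.0 RPM), of which miR-181a-2-3p was the higher in 2 of 6 libraries. The last step, 53.4-fold, led to miR-181d-3p (1.09 RPM), miR-181b-1-3p (0.769 RPM) and miR-181b-2-3p (0.389 RPM), whose ranges overlapped. These are levels of rows of like length, and ligation and amplification bias between small RNAs was not measured here.

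**Figure D1:**
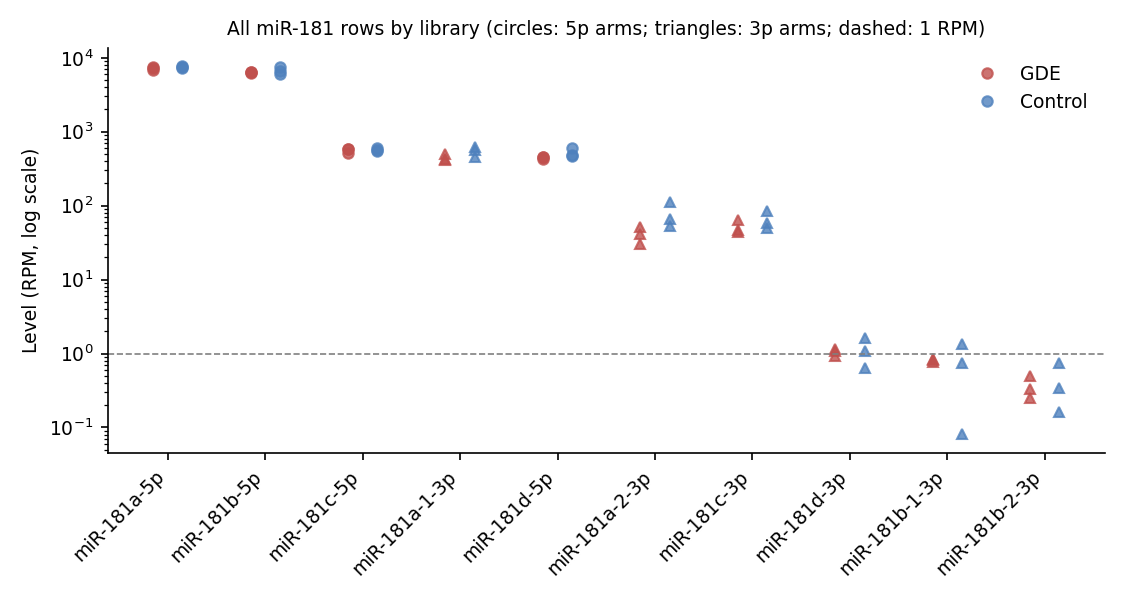
Level of each of the 10 miR-181 rows (RPM, log scale) in the 3 GDE and the 3 Control libraries, 1 point per library, with circles for 5p arms and triangles for 3p arms; the dashed line marks 1 RPM. The rows fall into 4 levels, with miR-181a-5p and miR-181b-5p at the top and the 3p arms of miR-181b and miR-181d at or under about 1 RPM.

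Within the 5p sum the shares of the main members were alike in the groups. miR-181a-5p made up 49.5% ± 0.690 of it in GDE and 49.3% ± 2.08 in Control, and miR-181b-5p 43.6% ± 0.741 in GDE and 43.6% ± 1.92 in Control. miR-181c-5p took 3.83% ± 0.152 in GDE and 3.70% ± 0.0663 in Control. miR-181d-5p took 3.06% ± 0.0406 in GDE and 3.39% ± 0.251 in Control, and its share was the only one of the 4 whose groups did not overlap. This share uses the same miR-181d-5p values as the gap in RPM given below, so they are not separate results. How often such shares differ without overlap in other families was not counted.

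Dexamethasone exposure was compared with saline over all 649 miRNAs that reached 1 RPM in at least 3 libraries, with limma on log2(RPM + 1), two-sided p-values and Benjamini-Hochberg adjustment at 0.05. Of the 10 family rows 8 entered, 4 of 4 5p arms and 4 of 6 3p arms; miR-181b-1-3p and miR-181b-2-3p were too low. None of the 8 passed, where 0.308% of all tested miRNAs did (2 of 649, mmu-miR-297c-5p higher in GDE and a predicted miRNA lower, named here only because the count is small). At an unadjusted p under 0.05 there was 1 family member, miR-181a-2-3p, and 56 miRNAs in all. That member no longer had such a p with the replicate number as a block (limma adjusted p = 0.573, and 0.0567 unadjusted) or without GDE replicate 1, GDE replicate 2, Control replicate 1 or Control replicate 2. edgeR, DESeq2 and limma-voom on the recovered tags also called 0 family members. All 8 log2 folds of GDE over Control were negative, with a median of -0.14, against 397 of 649 (61.2%) and a median of -0.07 over all tested miRNAs. That sign depended on the scaling. After rescaling by TMM (trimmed mean of M-values) 4 were negative and 4 positive, with a median of -0.05, and the median of all miRNAs was 0.01. The p-values measure the spread between these 3 and 3 litters, and in such bulk samples fewer cells of a type and less RNA per cell cannot be told apart.

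miR-181a-5p, the member with the known role in T cell receptor signalling, had 7551, 7276 and 6869 RPM in the GDE libraries and 7711, 7596 and 7328 RPM in the Control libraries. The groups overlapped, and both kept within a narrow band. The means were 7232 ± 343 RPM in GDE and 7545 ± 196 RPM in Control, a log2 fold of -0.06 (SE 0.06, 95% interval -0.20 to 0.07, limma adjusted p = 0.771, 0.625 to 0.999 over the alternatives). By an exact two-sided permutation test p was 0.2, where 3 against 3 libraries allow none under 0.1.

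miR-181b-5p, cut from the precursors next to those of miR-181a, had 6425, 6441 and 6209 RPM in the GDE libraries and 7454, 6657 and 5963 RPM in the Control libraries. The Control libraries spread on both sides of the GDE libraries, which lay close together. The log2 fold was -0.07 (SE 0.08, 95% interval -0.26 to 0.13, limma adjusted p = 0.851), from means of 6358 ± 129.7 RPM in GDE and 6691 ± 746 RPM in Control. The ratio of miR-181a-5p to miR-181b-5p was 1.18, 1.13 and 1.11 in GDE and 1.03, 1.14 and 1.23 in Control, so its mean was 1.14 in GDE and 1.13 in Control, and it varied more among the Control libraries.

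miR-181c-5p, from the Nanos3 intron, had 578.9, 586.1 and 514.6 RPM in the GDE libraries and 602.3, 559.3 and 540.6 RPM in the Control libraries. The groups were intermixed, and the log2 fold was -0.02 (SE 0.13, 95% interval -0.33 to 0.29, limma adjusted p = 0.989). This interval leaves room for a change of about 0.3 in either direction on the log2 scale.

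miR-181d-5p, its neighbour in that intron, had 453.6, 457.7 and 426.7 RPM in the GDE libraries and 602.3, 491.2 and 470.6 RPM in the Control libraries. All GDE libraries lay under all Control libraries, also after rescaling to the table sum and by TMM, but the fold was small and did not pass. The means were 446.0 ± 16.8 RPM in GDE and 521.4 ± 70.8 RPM in Control, a log2 fold of -0.22 (SE 0.15, 95% interval -0.57 to 0.14, limma adjusted p = 0.666, exact permutation p = 0.1). Without Control replicate 1, the highest library, the log2 fold was -0.11. A gap between the groups with GDE lower was found in 2 of the 8 tested members, miR-181d-5p and miR-181a-2-3p, and in 10.0% of all tested miRNAs (65 of 649); whether these shares differ was not tested.

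miR-181c-5p and miR-181d-5p, which come from precursors 85 bases apart, stood in a ratio of 1.28, 1.28 and 1.21 in GDE and of 1.00, 1.14 and 1.15 in Control. The ratio, which no scaling of the library can move, was higher in every GDE library, at 1.25 ± 0.0419 in GDE and 1.10 ± 0.083 in Control, a log2 difference of 0.20 (computed on RPM + 1, as for the other ratios). Its exact two-sided permutation p was 0.1, the smallest this design allows, and 0.4 after Benjamini-Hochberg adjustment over the 4 within-family ratios compared. The ratio uses the same miR-181d-5p values as the gap above, so it is not a separate result.

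**Figure D2:**
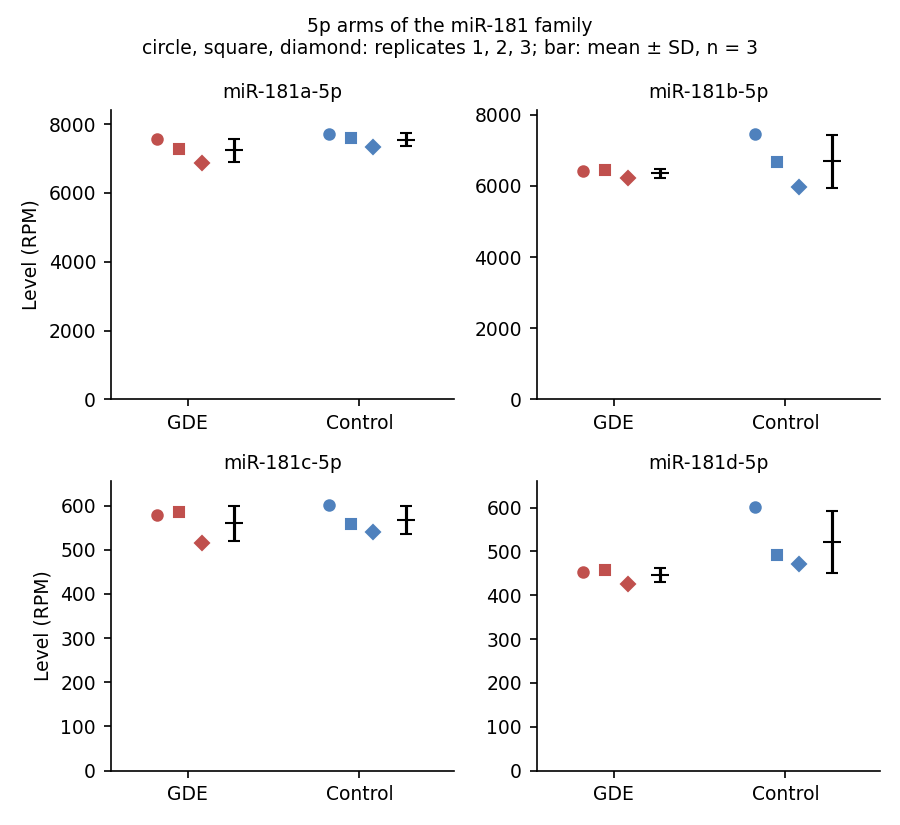
RPM of the 4 5p members in the 3 GDE and the 3 Control libraries (1 symbol per replicate number, on axes from 0), with the mean and SD of each group (n = 3) beside the points. The GDE and Control libraries overlap for miR-181a-5p, miR-181b-5p and miR-181c-5p, and for miR-181d-5p the GDE libraries at 426.7 to 457.7 RPM lie under the Control libraries at 470.6 to 602.3 RPM.

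The 3p arms, the passenger side of these duplexes, were far less abundant and more variable. miR-181a-1-3p, the arm made on chromosome 1 alone, had 497.1, 413.6 and 422.4 RPM in the GDE libraries and 622.5, 572.7 and 461.8 RPM in the Control libraries. GDE replicate 1 was above Control replicate 3, so the groups overlapped. The means were 444.4 ± 45.9 RPM in GDE and 552.3 ± 82.2 RPM in Control, and the log2 fold was -0.31 (SE 0.17, 95% interval -0.70 to 0.08, limma adjusted p = 0.576).

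miR-181a-2-3p, its counterpart from chromosome 2, had the largest fold among the 8 tested members. It had 29.9, 41.6 and 51.5 RPM in the GDE libraries (358, 492 and 624 tags) and 111.1, 65.7 and 52.2 RPM in the Control libraries (1337, 814 and 614 tags). The groups were adjacent and did not overlap, although GDE replicate 3 and Control replicate 3 were nearly equal, and they did overlap after rescaling: GDE replicate 3 then had 56.7 RPM against 54.6 RPM in Control replicate 3 by TMM. The means were 41.0 ± 10.8 RPM in GDE and 76.4 ± 30.8 RPM in Control. The log2 fold was -0.84 (SE 0.33, 95% interval -1.61 to -0.07, limma p = 0.0361 before and 0.561 after adjustment, 0.338 to 0.822 over the alternatives; exact permutation p = 0.1). It was -0.54 without Control replicate 1 and -1.08 without Control replicate 3.

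The ratio of miR-181a-1-3p to miR-181a-2-3p, which sets the 3p arm of the chromosome 1 copy against that of the chromosome 2 copy, was 16.6, 9.93 and 8.21 in GDE and 5.60, 8.71 and 8.84 in Control. In every library the chromosome 1 arm was the higher. These arms differ in sequence, and how much of each strand is kept or captured was not measured. The ratio therefore does not give the relative output of the 2 loci. The means were 11.6 ± 4.45 in GDE and 7.72 ± 1.83 in Control, and the groups overlapped (log2 difference 0.54, exact two-sided permutation p = 0.3, 0.6 after Benjamini-Hochberg adjustment over 4 ratios). The log2 difference was 0.25 without GDE replicate 1 and 0.32 without Control replicate 1. The rows of the miR-181b copies, miR-181b-1-3p and miR-181b-2-3p, rested on too few tags for such a ratio to be read, with 10, 9 and 10 against 4, 3 and 6 tags in the GDE libraries and 9, 1 and 16 against 9, 2 and 4 tags in the Control libraries. Over all 6 libraries they came to 0.763 RPM (95% exact Poisson interval 0.575 to 0.993) and 0.388 RPM (0.258 to 0.561).

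miR-181c-3p had 44.6, 46.4 and 63.5 RPM in the GDE libraries and 85.9, 49.7 and 57.8 RPM in the Control libraries. The groups overlapped, with Control replicate 1 the highest, and the log2 fold of -0.30 (SE 0.27, limma adjusted p = 0.762) became -0.07 without that library. miR-181d-3p was close to the limit of detection, at 13, 11 and 14 tags in the GDE libraries and 13, 8 and 19 tags in the Control libraries, and its log2 fold was -0.02 (SE 0.23, limma adjusted p = 0.995).

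**Figure D3:**
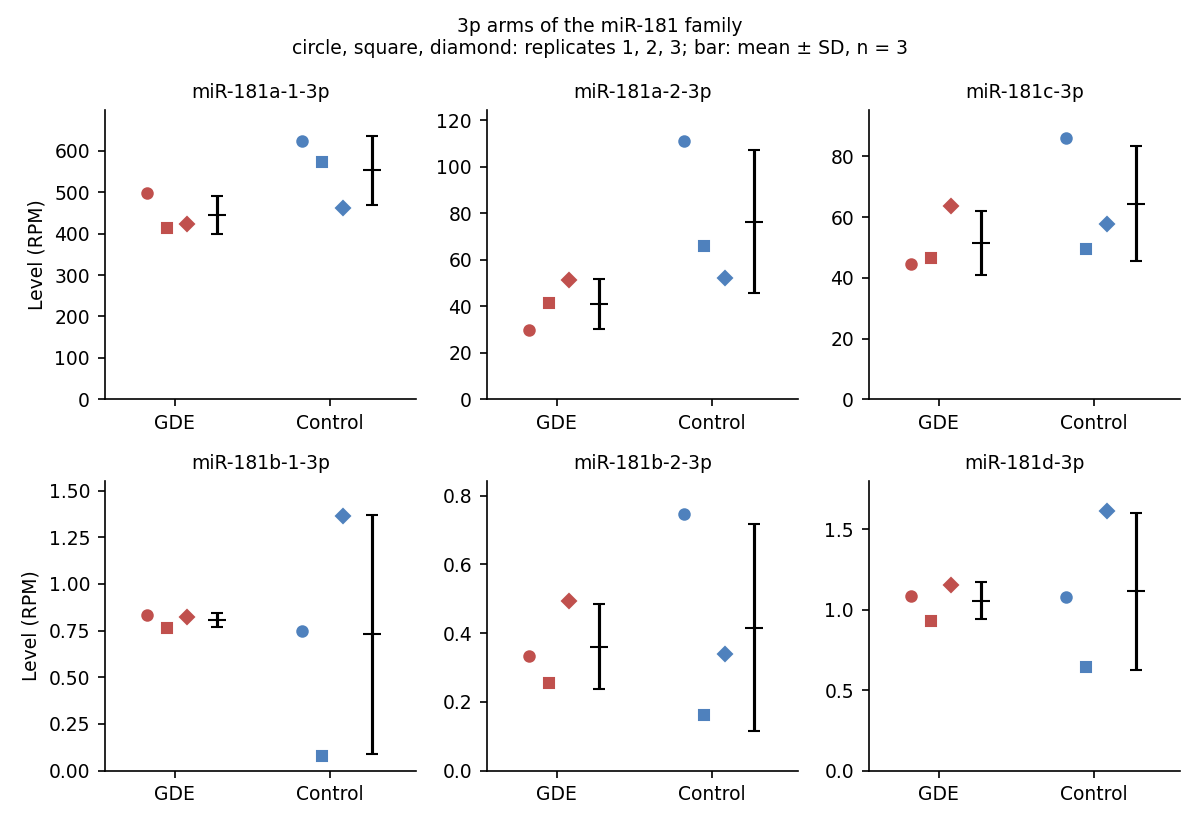
RPM of the 6 3p members in the 3 GDE and the 3 Control libraries (1 symbol per replicate number, each panel on its own axis from 0), with the mean and SD of each group (n = 3) beside the points. For miR-181a-2-3p the GDE libraries, up to 51.5 RPM, lie just under the Control libraries, from 52.2 RPM, and the 3 rows in the lower panels rest on at most 19 tags per library.

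The arms can be set against each other within a library, where the scaling cancels. Summed over the family, the 3p arms made up 3.68, 3.30 and 3.71% of the RPM of both arms in the GDE libraries and 4.78, 4.31 and 3.87% in the Control libraries. All GDE libraries lay under all Control libraries, at 3.56% ± 0.229 in GDE and 4.32% ± 0.458 in Control. How often other families show such a gap was not counted. The 3p sum itself was 539.1 ± 35.2 RPM in GDE and 695.4 ± 123.6 RPM in Control. Its groups nearly touched, with 573.9 RPM in GDE replicate 1 and 575.2 RPM in Control replicate 3. Most of this sum was miR-181a-1-3p, 82.3% ± 4.20 in GDE and 79.7% ± 3.74 in Control.

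The bias to the 5p strand differed between letters. miR-181a-5p was 14.3, 16.0 and 14.497 times its summed 3p arms in the GDE libraries and 10.5, 11.9 and 14.3 times in the Control libraries. Every GDE library was above every Control library, but the closest were nearly equal, at 14.33 in GDE replicate 1 and 14.26 in Control replicate 3. Against either 3p arm alone the groups overlapped: for miR-181a-1-3p the ratio was 15.2 in GDE replicate 1 and 15.9 in Control replicate 3. How many other precursors show such a gap was not counted. The miR-181a arms are also most of the 3p share given above, so this gap and that one are not separate results. miR-181c-5p was 7.01 to 13.0 times miR-181c-3p over the 6 libraries. For miR-181d-5p the ratio was 291 to 760.4, over 78 3p tags in all. For miR-181b-5p it was 3503 to 27510.0, over 83 3p tags in all, so its size is known only roughly. Over the 146 precursors with both arms past the filter, 94 (64.4%) had more 5p than 3p.

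Tested by limma over these 146 precursors on log2((5p RPM + 1)/(3p RPM + 1)), no arm ratio of the family passed an adjusted p of 0.05, and 0% of all precursors did (13 at an unadjusted p under 0.05). The ratio of Mir181a-1 was 16.3 ± 1.20 in GDE and 13.8 ± 1.81 in Control (log2 difference 0.25, SE 0.20, limma adjusted p = 0.68). That of Mir181a-2 was 252.7, 174.7 and 133.5 in the GDE libraries and 69.4, 115.6 and 140.3 in the Control libraries, and GDE replicate 3 lay within the Control range. Its log2 difference was 0.78 (SE 0.33, limma adjusted p = 0.519, and 0.0464 unadjusted). It was 0.49 without Control replicate 1, and the unadjusted limma p was then 0.137, against 0.0948 with the replicate number as a block. Mir181a-1 and Mir181a-2 share the 5p values, so their ratios are not independent. The log2 difference was 0.28 (SE 0.28, limma adjusted p = 0.744) for Mir181c and -0.20 (SE 0.24, limma adjusted p = 0.814) for Mir181d. Single libraries moved both: the difference for Mir181c was 0.10 without Control replicate 1 and 0.49 without GDE replicate 3, and that for Mir181d was -0.07 without Control replicate 2 and -0.44 without Control replicate 3.

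Control replicate 1 stood out in most of these rows. It was the highest library for 7 of the 8 tested members, all 4 5p arms among them, and for 41.4% of all tested miRNAs (269 of 649). Its TMM factor was 1.17, against 0.907 to 1.00 in the GDE libraries and 0.956 to 0.979 in the other 2 Control libraries, and its table held 277888 RPM, the largest sum of the 6. Without it, 6 of the 8 log2 folds were negative and 2 positive, with a median of -0.06, and the median of all tested miRNAs was -0.02.

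**Figure D4:**
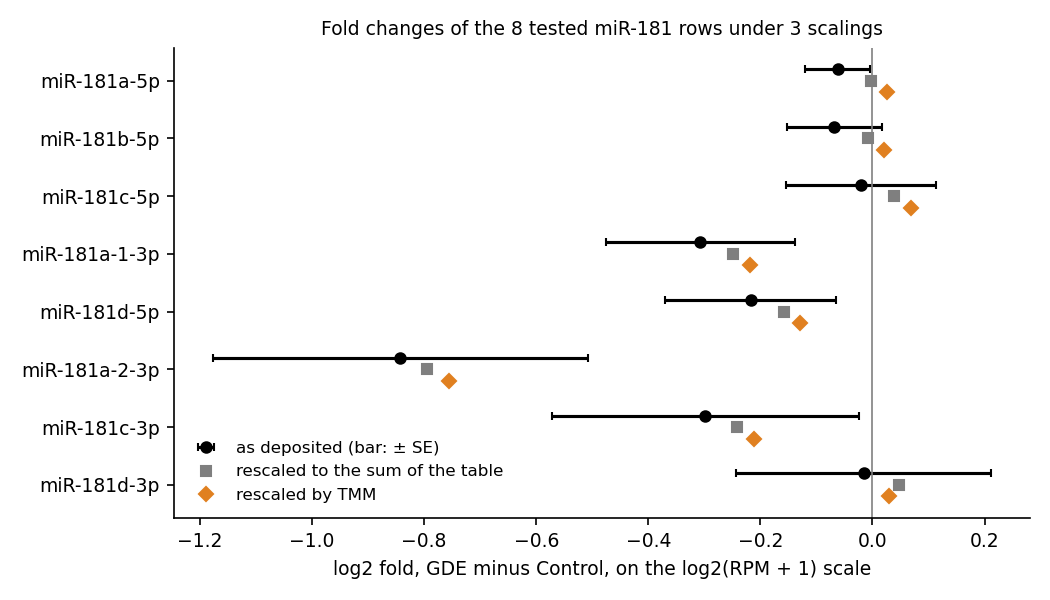
Log2 fold of GDE over Control on the log2(RPM + 1) scale for the 8 tested miR-181 rows, as deposited (black circles, bars ± SE) and after rescaling each library to the sum of the table (grey squares) or by TMM (orange diamonds). Rescaling moves every fold to the right. miR-181a-5p and miR-181b-5p cross 0 under TMM, and miR-181c-5p and miR-181d-3p cross it under both rescalings, while miR-181a-2-3p stays the lowest row under each scaling.

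The replicates of the top rows were close to each other, which bears on how the miR-181a-5p and miR-181b-5p levels are read. The 18 named miRNAs at or above 5000 RPM lay within 1.56-fold of each other, at 5979.8 to 9333 RPM, and held 53.7% of the RPM of the table. Their median within-group SD was 0.0494 on the log2(RPM + 1) scale. It was 0.189 for the 34 named miRNAs between 1000 and 5000 RPM and 0.264 for the 107 between 100 and 1000 RPM. miR-181a-5p had an SD of 0.0555 and miR-181b-5p one of 0.116. The 3 members between 100 and 1000 RPM had 0.0923 (miR-181c-5p), 0.14 (miR-181d-5p) and 0.187 (miR-181a-1-3p), and miR-181a-2-3p had 0.475. The source of the narrow band at the top was not tested, and the like levels of miR-181a-5p and miR-181b-5p do not show that the cells hold equal amounts of them. The arm ratios of miR-181a and miR-181b, the 3p share and the step down to miR-181c-5p rest on these rows too. How far the band affects their size was not tested.

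**Figure D5:**
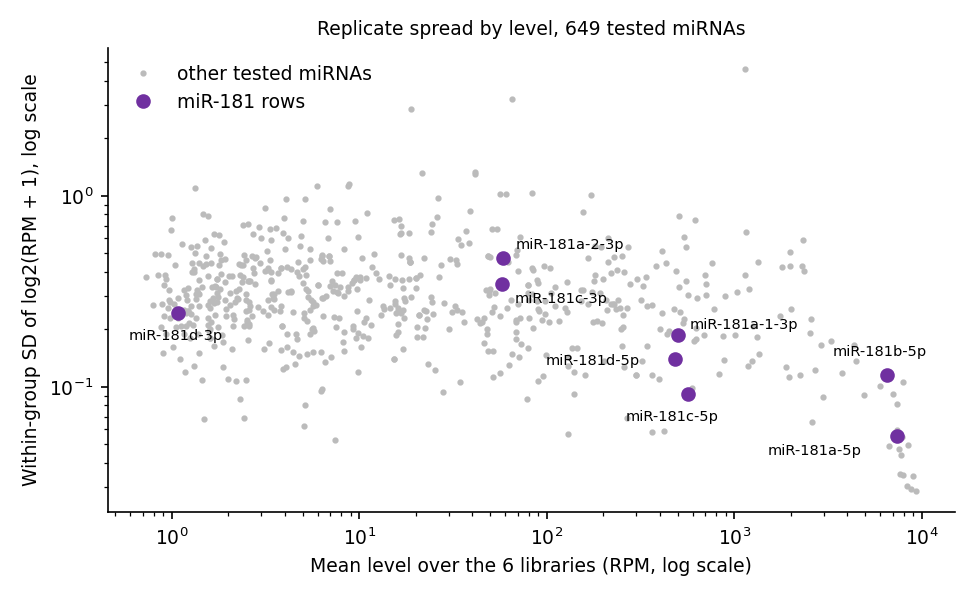
Within-group SD of log2(RPM + 1) (log scale) against the mean level over the 6 libraries (RPM, log scale) for the 649 tested miRNAs, with the 8 tested miR-181 rows in purple. The SD falls at the right edge, where miR-181a-5p (0.0555) and miR-181b-5p (0.116) lie among the 18 named miRNAs above 5000 RPM.

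In level, miR-181a-5p stood between miR-16-5p (7407 RPM) and miR-22-3p (7383 RPM), and miR-181b-5p between let-7g-5p (6647 RPM) and miR-191-5p (5979.8 RPM). miR-181c-5p stood between miR-301a-3p (568.0 RPM) and miR-1839-5p (554.7 RPM), and miR-181d-5p between miR-19b-3p (487.7 RPM) and miR-384-3p (479.4 RPM). The ranges of all these neighbours overlapped with those of the members. In pattern over the 6 libraries, measured as the root mean square difference of log2(RPM + 1) centred per miRNA among 154 named miRNAs of at least 100 RPM, miR-181a-5p was nearest to let-7a-5p (0.0365), miR-34a-5p (0.0417) and let-7f-5p (0.0489), where the median miRNA was at 0.199. miR-181b-5p was nearest to miR-149-5p (0.0433), miR-423-3p (0.0527) and miR-872-5p (0.0605), against a median of 0.204. The miRNAs nearest to miR-181b-5p had, as it did, their highest value in Control replicate 1, while these likenesses rest on 6 libraries that share depth and scaling. The measure is not scaled to the spread of each miRNA, so rows that vary little lie near each other whatever their pattern. The within-group SD was 0.035 for let-7a-5p, 0.055 for miR-34a-5p and 0.035 for let-7f-5p. It was thus as small as that of miR-181a-5p, whose nearness to them does not show a shared pattern.

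Because miR-181 is also high in lymphocytes, blood cell markers were set beside it. The 5 leukocyte miRNAs summed to 409.1 to 572.5 RPM in GDE and 222.5 to 369.7 RPM in Control, without overlap, and 4 of 5 had a positive log2 fold, with none called and 3 at an unadjusted p under 0.05 by limma. The lymphocyte miRNA miR-150-5p averaged 298.4 ± 62.5 RPM in GDE libraries and 126.8 ± 52.4 RPM in Control libraries, and the myeloid miR-223-3p 78.3 ± 15.5 RPM in GDE libraries and 29.95 ± 21.2 RPM in Control libraries. miR-142a-3p, found across blood cells, averaged 12.9 ± 3.92 RPM in GDE libraries and 4.78 ± 4.92 RPM in Control libraries, and miR-142a-5p was listed at 0 in Control replicate 1. The 4 erythroid miRNAs summed to 73.9 to 93.6 RPM in GDE and 35.0 to 69.1 RPM in Control, again without overlap, with none called. Among them miR-451a averaged 65.3 ± 8.06 RPM in GDE libraries and 34.5 ± 16.5 RPM in Control libraries. The leukocyte miR-155-5p went the other way from the rest of its list, at 90.6 ± 6.57 RPM in GDE libraries and 108.2 ± 13.1 RPM in Control libraries, with overlapping groups. The erythroid miR-486a-5p had 15.6 ± 2.01 RPM in GDE libraries and 15.0 ± 1.14 RPM in Control libraries. The 3 choroid plexus miRNAs summed to 388.7 to 986.8 RPM in GDE and 156.5 to 522.2 RPM in Control and all had positive log2 folds, with 2 at an unadjusted p under 0.05 by limma. Among them miR-204-5p averaged 682.0 ± 294.5 RPM in GDE libraries and 333.0 ± 182.3 RPM in Control libraries, with overlapping groups, and miR-211-5p 5.24 ± 3.54 RPM in GDE libraries and 1.51 ± 0.660 RPM in Control libraries, without overlap. Of the endothelial pair, miR-126a-3p averaged 333.8 ± 103.0 RPM in GDE libraries and 271.8 ± 54.9 RPM in Control libraries, with overlapping groups, and miR-126a-5p 18.4 ± 2.06 RPM in GDE libraries and 13.8 ± 2.24 RPM in Control libraries, without overlap. Over all tested miRNAs, 30 of 649 were higher in GDE without overlap and 252 of 649 had a positive log2 fold. Whether the markers differ from these shares was not tested, and how often sums of other miRNAs show such gaps was not counted. The part of the blood, choroid plexus and endothelial markers in the miR-181 values was not tested. The 5 progenitor markers summed to 27859 to 29434 RPM in GDE and 28079 to 30094 RPM in Control, and the 7 neuronal ones to 2625 to 3123 RPM in GDE and 2734 to 3052 RPM in Control. Of 11 other miRNAs with a reported role in lymphocyte differentiation, 5 of them also among the leukocyte markers, none passed, 6 of the log2 folds were above 0 and 5 below it (median 0.19), and 3 had an unadjusted p under 0.05.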

How the data were processed

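The labels' protocols describe TRIzol extraction and the MGIEasy Small RNA Library Prep Kit. Bowtie2 and mm10 appear in the submitters' processing notes without version or role. Trimming is not given in the sources used here, nor is the assignment of reads that fit several miRNAs. Groups and replicate numbers were taken from the library titles.

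The values deposited by the authors are taken to be RPM because of their steps. In each library 100% of the nonzero values were whole multiples of 1 step within a tolerance of 0.1 tags, which gave tags and depth. The 649 miRNAs that reached 1 RPM in at least 3 libraries were fitted with limma 3.58.1 (R 4.3.3) on log2(RPM + 1) with a trend, no further scaling and no covariate; the log scale understates the change of low miRNAs. As the values were RPM, edgeR 4.0.16, DESeq2 1.42.0 and limma-voom on the recovered tags were alternatives, beside other scalings, pseudocounts (0.1 and 10), filters, the replicate number as a block, and fits without each library. edgeR called 2 miRNAs. Python 3.11.15, scipy 1.17.1 and Biopython 1.88 (sequence comparison) were used.

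Replicates differed by more than sampling noise (chi-square per degree of freedom 50.1 to 186.4 between pairs), so each library counts once. Members, lists and markers were chosen with earlier results of these data known. Named beside the members were, by rule, the next miRNA above and below each 5p member, the 3 nearest in pattern to miR-181a-5p and miR-181b-5p, and defining cell type markers.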

Additional observations from a re-analysis of the deposited data

How the results depend on the processing

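No family member passed the threshold under any alternative run. Over all miRNAs, 1 was called with a filter of 10 RPM (0 lower in GDE), 1 by limma-voom (0 lower) and 7 by DESeq2 (5 higher, 2 lower in GDE); leaving out each library gave 2 to 3, of which 1 to 2 were higher. The log2 folds of miR-181a-1-3p, miR-181a-2-3p, miR-181c-3p and miR-181d-5p stayed negative in every alternative run. The near-zero ones changed sign. miR-181a-5p came to 0.027 under TMM, 0.023 by edgeR, 0.031 by DESeq2 and 0.030 by limma-voom. miR-181b-5p came to 0.020, 0.020, 0.027 and 0.020 in the same order, and to -0.15 to 0.013 without each library in turn. miR-181c-5p came to 0.039 with the table sum as scale and to 0.068, 0.067, 0.075 and 0.070 under those 4, with -0.054 to 0.039 without each library. miR-181d-3p came to 0.0065 with a pseudocount of 0.1 RPM, 0.047 with the table sum, 0.029, 0.014, 0.025 and 0.11 under those 4, and -0.18 to 0.15 without each library. The summed 5p log2 difference came to 0.020 under TMM. Of the arm ratios, 0 were called in every alternative run, and those of the family kept their direction. The log2 difference in the ratio of miR-181a-5p to miR-181b-5p ran from -0.059 to 0.065 without each library. With the replicate number as a block, 0 family members were called, the 2 miRNAs called over all were both called again, and miR-181a-2-3p had a log2 fold of -0.84 (limma adjusted p = 0.573, unadjusted 0.0567). Libraries of the same number did not deviate together (r = -0.03, -0.12 and -0.03), and those of different numbers had r from -0.074 to 0.146. Such correlations cannot show whether libraries of the same number were collected or handled together.

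With 3 libraries a group, a fold of the size seen for miR-181a-2-3p did not pass the threshold over 649 miRNAs. At 78 and 83 tags in all, the 3p arms of miR-181d and miR-181b are too sparse for a change to be read. The split of reads between near-identical members is unknown.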
